A study of Homo sapiens with 30 samples.

Results

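The enzymes that build purine and pyrimidine nucleotides from small precursors were followed through all RNA-seq libraries of a study on cooperation between clones of a breast cancer cell line. The 10 enzymes were taken by gene symbol: PPAT, GART, PFAS, PAICS, ADSL, ATIC and IMPDH2 for purines, and CAD, DHODH and UMPS for pyrimidines. Each was present once among the 26475 genes of both deposited tables, and all 10 passed the filter on low counts (14570 genes tested in the first table, 14638 in the second). MDA-MB-231 is a human triple-negative breast cancer line with mesenchymal features, and the samples were lineages derived from it, named by number and labelled wild type. The first table held lineages 22, 35 and 45 in isolation and from co-culture, and the second held lineages 03, 10 and 13 and a sample named Pop in isolation, with 3 libraries in each of the 10 groups. What Pop was is not said in the labels.

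All groups were grown in RPMI-1640 with 10% dialyzed fetal bovine serum and 2 mM glutamine. Dialysis removes small molecules from serum. The isolation groups spent about 24 h in this medium and were lysed directly in TRIzol. The co-culture groups were kept for 15 days in a culture of 6 lineages that went through a bottleneck passage every 3 days, and were then separated by fluorescence-activated sorting before RNA was taken with a different kit. Co-culture, culture time, sorting and RNA preparation therefore cannot be told apart in any comparison of co-culture with isolation. No label states that replicate libraries were grown as separate cultures, and p-values here measure only the spread between the libraries.

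Purine synthesis assembles the ring on a ribose phosphate that comes from PRPP, the product of the PRPS enzymes. PPAT makes the first committed step, GART, PFAS and PAICS extend the chain, ADSL removes fumarate, and ATIC closes the ring to give IMP. IMPDH2 then commits IMP to GMP, while ADSL acts a second time on the branch to AMP. Pyrimidine synthesis starts with CAD, a large protein with several activities that makes dihydroorotate from glutamine, bicarbonate and aspartate. DHODH oxidises dihydroorotate at the inner mitochondrial membrane, and UMPS turns orotate into UMP. Dividing tumour cells are known for high demand on both routes, and cells can also recover ready-made bases and nucleosides by salvage.

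Library totals were 29.8 to 38.8 M estimated counts (M for mega) in the first table and 28.1 to 35.4 M in the second, and the biological coefficient of variation was 10.4% in both. Values are CPM, counts rescaled to a common library total after correction by the trimmed mean of M values (TMM). A gene was called when the adjusted p of edgeR's quasi-likelihood test, taken over all genes of the table, was under 0.05. Summed over 7 genes known to be high in MDA-MB-231 (vimentin and CD44 among them), levels were 6980 to 10981 CPM in the first table and 5735 to 8643 CPM in the second, against 79.2 to 113 CPM for 7 genes known to be low in it. MTAP, a purine salvage enzyme that MDA-MB-231 is known to have lost, had 1 count in the 18 libraries of the first table and 0 in the 12 of the second, where 0 allows up to 3 counts. Levels between the tables were not compared.

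All 10 enzymes were well measured. In the first table the lowest estimated count was 337, for DHODH, and the highest was 20169, for PAICS. In the second they were 236, for DHODH, and 17504, for PAICS. Divided by the length of each gene's principal transcript, the median level over the 18 libraries was highest for IMPDH2 (234 CPM per kilobase) and lowest for DHODH (4.89 CPM per kilobase), with PAICS at 76.4, ATIC at 56.3, GART at 51.2, ADSL at 30.1, CAD at 25.2, PFAS at 18.6, PPAT at 17.1 and UMPS at 7.47 CPM per kilobase. This order rests on GENCODE v29 transcript lengths, which may not be the ones behind the deposited counts. GART overlaps SON and PFAS overlaps CTC1 on the opposite strand, ADSL overlaps SGSM3, and pseudogenes named after PAICS (7) and PPAT (2) are annotated. Whether the counting used strand is not given in the sources used here, so those values carry that uncertainty.

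**Figure D1:**
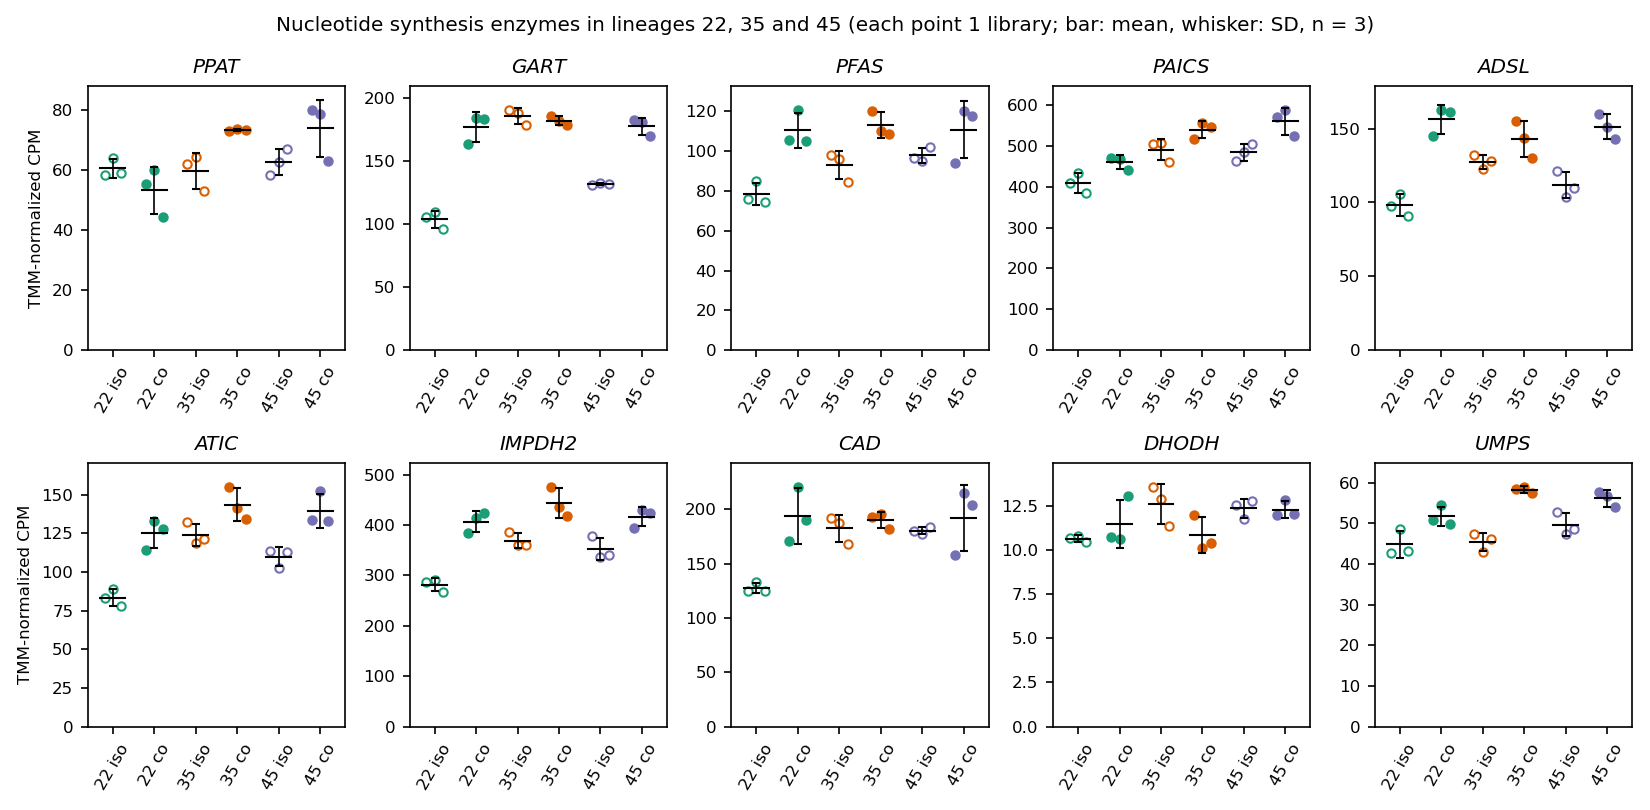
TMM-normalized CPM of the 10 enzymes in the 18 libraries of lineages 22, 35 and 45, in isolation (open points) and from co-culture (filled points), with the mean (bar) and SD (whisker) of 3 libraries and each vertical axis starting at 0. GART runs from 96.2 to 109 CPM in lineage 22 in isolation and from 163 to 191 CPM in the co-culture groups and in lineage 35 in isolation.

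The first question was how each lineage differed after co-culture. In lineage 22, 7 of the 10 enzymes were higher from co-culture and 0 were lower, where 27% of all genes were called higher and 30% lower. GART, ADSL, CAD, ATIC, IMPDH2, PFAS and UMPS rose, and PAICS, PPAT and DHODH did not pass the test. The median log2 fold change of the 10 was 0.51, against -0.04 over all genes. In lineage 35, 5 of 10 were higher and 0 lower (32.7% of all genes higher, 32.9% lower), with a median of 0.19 against 0.01. The 5 were UMPS, IMPDH2, PFAS, PPAT and ATIC. In lineage 45, 5 of 10 were higher and 0 lower (18.6% higher, 23.2% lower), with a median of 0.22 against -0.03, and these were GART, ADSL, ATIC, IMPDH2 and PAICS. RLE scaling (DESeq2's size factors) in edgeR and DESeq2 itself each called 7 in lineage 45, with PPAT (adjusted p = 0.0391 and 0.0324) and UMPS (0.0250 and 0.0109) added. ATIC and IMPDH2 passed the test upward in all 3 lineages, as did 7.77% of all genes tested. GART, PFAS, ADSL and UMPS did so in 2 lineages (13.9% of all genes), PPAT, PAICS and CAD in 1 (27.1%), and DHODH in 0 (51.2%). In lineage 22 the count became 6 higher and 1 lower when only total counts were used for scaling, because UMPS was lost (adjusted p = 0.457) and PPAT was called lower (adjusted p = 0.0200). That scaling moved the median of all genes by -0.14 in this comparison. In lineage 35 the same scaling lost ATIC (adjusted p = 0.0694) and PPAT (0.0681) and called DHODH lower (0.0162). In lineage 45 it lost PAICS (0.0877).

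GART, which carries several early steps of the purine ring on 1 protein (chromosome 21, positions 33503931 to 33543491, minus strand, GRCh38), had the largest change of the 10 in lineage 22. It measured 106, 109 and 96.2 CPM in the 3 isolation libraries and 163, 184 and 183 CPM in the 3 co-culture libraries, so every co-culture library was above every isolation library. The log2 fold change was 0.77 ± 0.07 (SE), or 1.70-fold, with an adjusted p of 3.80e-08. Lineage 45 moved the same way, from 131, 133 and 132 CPM to 182, 181 and 170.1 CPM (log2 fold change 0.43 ± 0.07, adjusted p = 6.96e-05). Lineage 35 stood near the co-culture level of the other lineages in isolation as well as from co-culture. It measured 191, 188 and 178 CPM in isolation and 186, 182 and 179 CPM from co-culture, and the groups overlapped. Its log2 fold change was -0.03 (95% interval -0.16 to 0.11, adjusted p = 0.733). Beside this, the 122 tested genes of chromosome 21 had a median log2 fold change of -0.31 in lineage 35, 0.09 in lineage 22 and 0.06 in lineage 45, and their part in the GART values was not tested.

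PPAT, the amidotransferase of the first committed step (chromosome 4, positions 56393362 to 56435615, minus strand), was the only one of the 10 with a negative value in lineage 22, where 58.4, 64.1 and 59.0 CPM in isolation stood beside 55.2, 59.9 and 44.5 CPM from co-culture. The groups overlapped, and the log2 fold change of -0.18 ± 0.11 did not pass the test (adjusted p = 0.147). In lineage 35 the values were 61.8, 64.4 and 53.1 CPM in isolation and 73.0, 73.6 and 73.3 CPM from co-culture, a rise of 0.29 ± 0.11 on the log2 scale (adjusted p = 0.0205). That call was lost without isolation replicate 3 of lineage 35 (adjusted p = 0.110) and with total counts as scaling (0.0681). Lineage 45 had 58.4, 62.8 and 66.8 CPM and then 80.0, 78.6 and 63.0 CPM, and its log2 difference of 0.24 ± 0.11 missed the threshold (adjusted p = 0.0801). It passed without co-culture replicate 3 of lineage 45 (adjusted p = 0.0160) and without co-culture replicate 3 of lineage 22 (adjusted p = 0.0412). The 508 tested genes of chromosome 4 had a median of -0.35 in lineage 22, 0.17 in lineage 35 and 0.00 in lineage 45, and their part in the PPAT values was not tested.

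PAICS, which joins a carboxylase to the next synthetase of the pathway (chromosome 4, positions 56435741 to 56464579, plus strand), is the head-to-head neighbour of PPAT. The annotated ends of both genes leave a gap of 125 bases, which is shown because it lies before the start of both genes. In the plus strand of GRCh38.p14, from the promoter windows of RefSeq, it reads as follows, with each GGGCGG (the core letters of a GC box) in capitals.
PPAT to PAICS gap, chr4:56435616-56435740: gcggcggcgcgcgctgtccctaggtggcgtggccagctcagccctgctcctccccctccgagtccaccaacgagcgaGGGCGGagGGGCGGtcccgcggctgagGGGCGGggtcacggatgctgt
The stretch holds 3 such matches and is 76% G and C. GGGCGG or its complement was found in 34.5% of RefSeq windows of the same length before a gene's start, so a match of this kind is common, and the motif was chosen after the sequence was seen.

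With co-culture PAICS showed small differences of 1 sign in the 3 lineages. It measured 463, 486 and 505 CPM in lineage 45 in isolation and 570.5, 588 and 524 CPM from co-culture, with no overlap (log2 fold change 0.21 ± 0.07, adjusted p = 0.0241). That call was lost without isolation replicate 1 (adjusted p = 0.0958) or 2 (0.0618) and without co-culture replicate 1 (0.0506) or 2 (0.0974) of lineage 45, and with total counts as scaling (0.0877). In lineage 22 the values were 409, 435 and 386 CPM and 471, 469 and 442 CPM, also apart, with a log2 difference of 0.17 ± 0.07 and an adjusted p of 0.0532. The fit with the replicate number as a block put it just inside the threshold (adjusted p = 0.0485), as did leaving out 1 library in 7 of 18 cases, with adjusted p from 0.0339 to 0.199 over the 18. RLE scaling (0.0211) and DESeq2 (0.00509) called it as well. In lineage 35 the log2 difference was 0.14 ± 0.07 (adjusted p = 0.103, and 0.0401 by DESeq2).

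PFAS, the glutamine-using synthetase between GART's steps (chromosome 17, positions 8247618 to 8270491, plus strand), rose in lineage 22 from 76.0, 85.0 and 74.5 CPM to 106, 121 and 105 CPM. The groups did not overlap, and the log2 fold change was 0.49 ± 0.09 (adjusted p = 1.80e-04). In lineage 35 it went from 98.3, 96.1 and 84.7 CPM to 120.4, 110.3 and 108 CPM (log2 fold change 0.28 ± 0.09, adjusted p = 0.0126), a call lost without isolation replicate 3 (adjusted p = 0.0697) or co-culture replicate 1 (0.0594) of that lineage. In lineage 45 the co-culture libraries spread widely, at 94.2, 120.3 and 118 CPM beside 96.6, 95.1 and 102 CPM in isolation, and the log2 difference was 0.18 ± 0.09 (adjusted p = 0.136). Without its low co-culture replicate 1 the adjusted p was 0.0162.

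ADSL, the lyase that serves both the main chain and the AMP branch (chromosome 22, positions 40346500 to 40390463, plus strand), measured 97.7, 106 and 91.0 CPM in lineage 22 in isolation and 145, 163 and 161 CPM from co-culture. This was 1.59-fold higher (log2 fold change 0.67 ± 0.08, adjusted p = 1.80e-06). In lineage 45 it rose from 121, 104 and 109 CPM to 159.9, 151 and 143 CPM (log2 fold change 0.44 ± 0.08, adjusted p = 3.30e-04). In both lineages every co-culture library was above every isolation library. In lineage 35 the groups overlapped, with 132, 122 and 128 CPM and 155, 143 and 130.2 CPM (log2 difference 0.16 ± 0.08, adjusted p = 0.0916), and without co-culture replicate 3, the lowest of its group, the adjusted p was 0.0357.

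ATIC, which makes the last steps to IMP with a folate-borne formyl group (chromosome 2, positions 215311817 to 215349773, plus strand), rose in each lineage. It measured 83.1, 89.3 and 78.1 CPM in lineage 22 in isolation and 114, 133 and 128 CPM from co-culture. The corresponding values were 132, 119 and 121 CPM and 155, 141 and 134 CPM in lineage 35, and 114, 103 and 113 CPM and 134, 153 and 133 CPM in lineage 45. The groups were apart in all 3 lineages, and the lowest group was lineage 22 in isolation. The log2 fold changes were 0.58 ± 0.09 in lineage 22 (adjusted p = 1.08e-05), 0.21 ± 0.08 in lineage 35 (adjusted p = 0.0339) and 0.35 ± 0.08 in lineage 45 (adjusted p = 0.00284). The lineage 35 call was lost without isolation replicate 2 (adjusted p = 0.113) or 3 (0.0857), without co-culture replicate 1 (0.158) or 2 (0.0524), and with total counts as scaling (0.0694).

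IMPDH2, the major isozyme of the step from IMP towards GMP (chromosome 3, positions 49024325 to 49029408, minus strand), rose in each lineage too. In lineage 22 it went from 287, 292 and 267 CPM to 383, 414 and 423 CPM (log2 fold change 0.53 ± 0.07, adjusted p = 7.35e-06). In lineage 35 it went from 386, 360.5 and 360.2 CPM to 476, 435 and 418 CPM (log2 fold change 0.26 ± 0.07, adjusted p = 0.00404). In lineage 45 it went from 378, 337 and 341 CPM to 394, 431 and 424 CPM (log2 fold change 0.24 ± 0.07, adjusted p = 0.0139). No group pair overlapped, and the lineage 45 call was lost without isolation replicate 2 (adjusted p = 0.0676) or 3 (0.0556) or co-culture replicate 2 (0.0529). Its isozyme IMPDH1 did not share this pattern: it rose in lineage 22 (0.43 ± 0.08, adjusted p = 1.77e-04) and fell in lineage 35 (-0.83 ± 0.08, adjusted p = 2.35e-08) and lineage 45 (-0.28 ± 0.08, adjusted p = 0.00875), all on the log2 scale.

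Of the pyrimidine enzymes, CAD (chromosome 2, positions 27217390 to 27243943, plus strand) rose in lineage 22 alone among the 3 tests. It measured 125, 133 and 125 CPM in isolation and 171, 221 and 189.7 CPM from co-culture, with no overlap, a log2 fold change of 0.60 ± 0.10 and an adjusted p of 5.25e-05. In lineage 35 the values were 192, 187 and 168 CPM and 193, 196 and 182 CPM (log2 difference 0.06 ± 0.10, adjusted p = 0.629). In lineage 45 they were 179.8, 177 and 184 CPM and 158, 215 and 204 CPM (log2 difference 0.09 ± 0.10, adjusted p = 0.492). In the last group replicate 1 was the lowest and stood below all isolation libraries of lineage 45, as it did for PFAS. The 923 tested genes of chromosome 2, which holds CAD and ATIC, had medians of -0.03 in lineage 22, -0.26 in lineage 35 and -0.0006 in lineage 45. Their part in the CAD and ATIC values was not tested.

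DHODH (chromosome 16, positions 72008588 to 72027664, plus strand) passed the test in none of the 3 lineages. Its levels were low and even, from 10.1 to 13.6 CPM over the 18 libraries. The log2 differences were 0.11 in lineage 22 (95% interval -0.10 to 0.31), -0.22 in lineage 35 (-0.42 to -0.02) and -0.01 in lineage 45 (-0.21 to 0.19), with adjusted p of 0.393, 0.0707 and 0.959. In lineage 35 the negative value passed without isolation replicate 3 (adjusted p = 0.0299) or co-culture replicate 1 (0.0309). It also passed with total counts as scaling (0.0162) and with the stricter filter on low counts (0.0470).

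UMPS (chromosome 3, positions 124730366 to 124749273, plus strand) rose in lineage 35 from 47.3, 43.0 and 46.0 CPM to 58.3, 59.0 and 57.4 CPM (log2 fold change 0.36 ± 0.07, adjusted p = 2.73e-04). In lineage 22 it went from 42.7, 48.7 and 43.1 CPM to 50.8, 54.4 and 49.9 CPM (log2 fold change 0.21 ± 0.07, adjusted p = 0.0225), and in lineage 45 from 52.8, 47.4 and 48.7 CPM to 57.8, 56.6 and 53.9 CPM (log2 difference 0.18 ± 0.07, adjusted p = 0.0600). In all 3 lineages the co-culture libraries were above the isolation libraries. The lineage 22 call was lost without isolation replicate 1 (adjusted p = 0.0959) or 3 (0.0844) or co-culture replicate 2 (0.0953). The lineage 45 value passed without isolation replicate 1 (0.0402) or co-culture replicate 3 (0.0476).

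**Figure D2:**
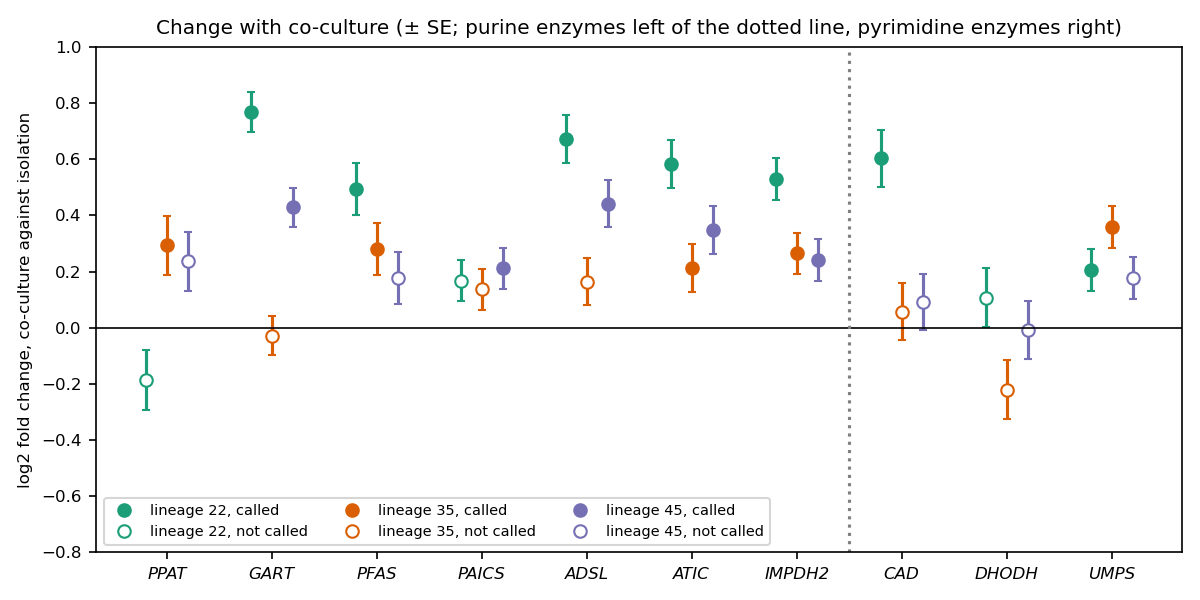
Log2 fold change of each enzyme from isolation to co-culture in lineages 22, 35 and 45, with the SE as whiskers, filled points for calls and open points for the rest. The lineage 22 points of GART, ADSL, CAD, ATIC, IMPDH2 and PFAS lie between 0.49 and 0.77, and 2 of the 3 DHODH points lie below 0.

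Counts of calls moved with single libraries. Leaving out 1 library at a time gave 6 to 8 enzymes called in lineage 22, 3 to 6 in lineage 35 and 3 to 7 in lineage 45. Beside the lineage 35 comparison, genes listed as leukocyte markers moved as well: 5 of 5 tested were higher from co-culture, their list of 7 summed to 45.2 to 70.9 CPM in isolation and 173 to 192 CPM from co-culture, and CD3E was at 0 in both groups. In bulk libraries, fewer cells of a type and less RNA per cell cannot be told apart. In lineage 22 the same list fell in 3 of 5 genes and in lineage 45 in 2 of 5. Of 4 tested endothelial markers, 2 were higher in lineage 35 (5 markers summed to 1.05 to 1.23 CPM in isolation and 6.10 to 6.62 CPM from co-culture), 3 were lower in lineage 22 (12.3 to 16.2 CPM and then 5.08 to 7.33 CPM) and 1 was lower in lineage 45. The part of both lists in the enzyme values was not tested.

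The second question was how the lineages differed from each other. In isolation, lineage 22 had the lowest mean for each enzyme other than PPAT. Its margin below lineage 35 was small for UMPS (44.8 ± 3.37 against 45.5 ± 2.22 CPM, SD, n = 3), and for PPAT the order was turned (60.5 ± 3.14 against 59.8 ± 5.96 CPM). Against lineage 35, 8 of 10 were lower in lineage 22 (31.4% of all genes were), with a median log2 difference of -0.32. GART differed by -0.84 ± 0.07, ATIC by -0.57 ± 0.09 and CAD by -0.52 ± 0.10 on the log2 scale, and PPAT (0.02) and UMPS (-0.02) did not pass. DHODH was at the edge of the threshold (adjusted p = 0.0461, from 0.0189 to 0.164 when 1 library was left out, with 10 of 18 calls kept and the call lost without any 1 library of lineage 22 or 45 in isolation or replicate 1 or 2 of lineage 35). Of the 7 other alternatives DESeq2 alone kept this DHODH call, and the adjusted p of the rest ran from 0.0512 with RLE scaling to 0.149 with total counts. PFAS lost its call without isolation replicate 1 (0.0864) or 3 (0.104) of lineage 22 or 1 (0.101) or 2 (0.0799) of lineage 35, with total counts (0.121) and with the stricter filter on low counts (0.0590). Against lineage 45, 6 of 10 were lower in lineage 22 (19.8% of all genes): CAD (-0.50 ± 0.10), ATIC (-0.40 ± 0.09), GART (-0.35 ± 0.07), IMPDH2 (-0.32 ± 0.07), PFAS (-0.32 ± 0.09) and PAICS (-0.24 ± 0.07). PAICS was lost there without isolation replicate 3 of lineage 22 (adjusted p = 0.0705) or of lineage 45 (0.0562), and PFAS without the former (0.0526), while UMPS joined without replicate 2 of lineage 22 (0.0491). Lineages 35 and 45 differed only in GART (0.49 ± 0.07, higher in lineage 35, as were 24.3% of all genes), and ADSL joined it without isolation replicate 1 of lineage 45 (adjusted p = 0.0270). The median of chromosome 21 was 0.34 for lineage 35 against 45, -0.38 for 22 against 35 and -0.04 for 22 against 45. That of chromosome 2, which holds ATIC and CAD, was 0.22, -0.20 and 0.04 in the same order. Chromosomes 3 and 4, with IMPDH2 and PAICS, had 0.14 and 0.21 for 22 against 35. The part of the chromosomes was not tested. These comparisons share the lineage 22, 35 and 45 isolation libraries with those above.

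After co-culture the order was different. PPAT and PAICS were lower in lineage 22 than in lineage 35 (15.5% of all genes were) and than in lineage 45 (12%), and no other enzyme passed the test. With total counts as scaling ATIC was called lower too, against lineage 35 (adjusted p = 0.0444) and lineage 45 (0.0471). PPAT measured 55.2, 59.9 and 44.5 CPM in lineage 22, below every library of lineage 35 (73.0, 73.6 and 73.3 CPM) and of lineage 45 (80.0, 78.6 and 63.0 CPM), with log2 differences of -0.46 ± 0.11 (adjusted p = 0.00248) and -0.47 ± 0.11 (adjusted p = 0.00265). For PAICS the differences were -0.23 ± 0.07 (adjusted p = 0.0205) and -0.28 ± 0.07 (adjusted p = 0.00647). Fitted on the compared groups alone, PAICS lost both calls (adjusted p = 0.0746 and 0.0852), and the first was also lost without co-culture replicate 3 of lineage 22 (0.0684) or replicate 2 (0.0764) or 3 (0.0659) of lineage 35. The median over chromosome 4 was -0.27 and -0.12 in these comparisons, and its part was not tested. Between lineages 35 and 45 from co-culture, edgeR called 0 of the 10 (12.7% of all genes were called in either direction), DESeq2 called 0, and 0 had an unadjusted p under 0.05. The 95% interval of the GART difference there was -0.10 to 0.17, and that of PPAT was -0.22 to 0.20, on the log2 scale.

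The range between the highest and the lowest lineage mean had a median over the 10 enzymes of 0.35 in isolation and 0.15 from co-culture on the log2 scale. Over all 14570 genes it went from 0.58 to 0.33, and 7 of 10 enzymes narrowed, as did 75.0% of all genes. GART narrowed from a 1.79-fold to a 1.03-fold range, and PPAT widened from 1.05-fold to 1.39-fold.

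Whether the co-culture change itself differed between lineages was tested with an interaction term. It passed for 6 of the 10 enzymes, and for 55.2% of all genes: GART (adjusted p = 3.96e-06), ADSL (0.00409), CAD (0.00435), PPAT (0.0197), ATIC (0.0352) and IMPDH2 (0.0418). With total counts ATIC (0.0725) and IMPDH2 (0.114) were lost, and IMPDH2 also with no filter (0.0669), the stricter filter (0.0624) and the replicate block (0.0506). The change of lineage 22 minus that of lineage 35 passed for the same 6 (49.6% of all genes), and was 0.80 ± 0.10 for GART, 0.55 ± 0.14 for CAD, 0.51 ± 0.12 for ADSL, 0.37 ± 0.12 for ATIC, 0.26 ± 0.11 for IMPDH2 and -0.48 ± 0.15 for PPAT on the log2 scale. IMPDH2 (adjusted p = 0.0429) was at the edge there: it was lost in 9 of 18 fits that left out 1 library, the highest without isolation replicate 3 of lineage 22 (0.110), and with total counts (0.107), no filter (0.0721) or the stricter filter (0.0593). PPAT was the only called enzyme whose change was lower in lineage 22 than in lineage 35. For this difference the tested genes of chromosome 21, which holds GART, had a median of 0.46, and those of chromosome 4, which holds PPAT, -0.51. Chromosome 2, with CAD and ATIC, had 0.22, chromosome 22, with ADSL, 0.15, and chromosome 3, with IMPDH2, -0.10. The part of the chromosomes in these values was not tested. Lineage 22 minus lineage 45 passed for CAD (0.51 ± 0.14) and GART (0.34 ± 0.10), where 17.3% of all genes did, and lineage 35 minus lineage 45 for GART (-0.46 ± 0.10), where 42.3% did. Chromosome 21 had medians of 0.06 and -0.39 in these differences, and chromosome 2 had -0.03 for lineage 22 minus lineage 45. In lineage 22 minus lineage 45, CAD was lost without co-culture replicate 2 of lineage 22 (adjusted p = 0.0560), and GART without that library (0.0541) or isolation replicate 3 of lineage 22 (0.0687) or with total counts (0.0616). PPAT missed the threshold there (0.0598) and passed with the replicate block (0.0393), total counts (0.0366), the stricter filter (0.0393) and DESeq2 (0.0357). Leaving out 1 library gave 3 to 6 interaction calls, with IMPDH2 kept in 9 of 18 cases, ATIC in 11 and PPAT in 16, and the highest p of IMPDH2 (0.128) and ATIC (0.104) without isolation replicate 3 of lineage 22. PPAT was lost without isolation replicate 2 (0.0639) or co-culture replicate 3 (0.0676) of lineage 22.

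Libraries of 1 group also differed among themselves in a patterned way. With each library set against the mean of its group, PPAT and PAICS deviated together over the 18 libraries (Pearson r = 0.81), and PFAS and CAD did so more closely (r = 0.90). PPAT and CAD showed little of this (r = 0.13). Other pairs also deviated together, with r = 0.82 for ATIC and IMPDH2 and 0.77 for ADSL and ATIC. After their shared value, the highest r of PPAT was 0.32 (with UMPS) and that of PAICS was 0.46 (with GART). In the second table, r was 0.53 for PPAT and PAICS, 0.94 for PPAT and GART and 0.90 for PFAS and CAD. CAD and UMPS deviated in opposite directions there (r = -0.95). The libraries of a group share their preparation and scaling, and the values are given as a description. In the co-culture groups of lineages 22 and 45, CAD ran from 171 to 221 CPM and from 158 to 215 CPM.

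**Figure D3:**
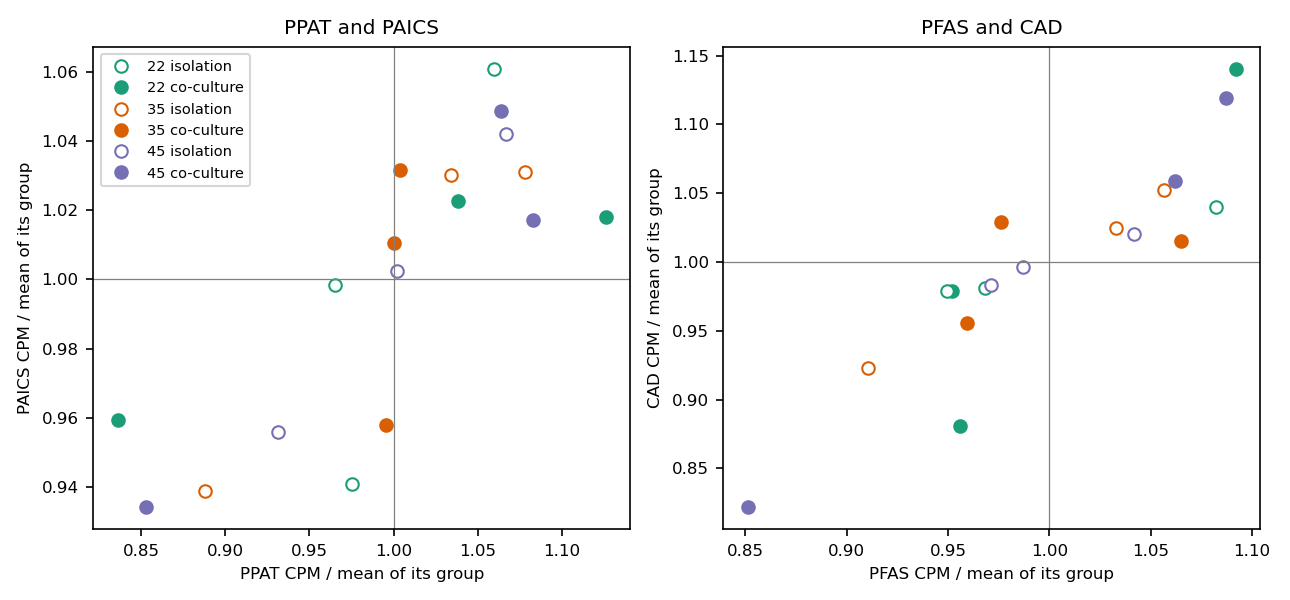
Level of PPAT and PAICS (left) and of PFAS and CAD (right) in each of the 18 libraries of the first table, each divided by the mean of its group, with open points for isolation and filled points for co-culture. Both clouds run from lower left to upper right, with co-culture libraries at the ends (r = 0.81 and 0.90 on log2 values).

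The third comparison set lineages 03, 10 and 13 in isolation against Pop and against each other. The 3 comparisons with Pop share its libraries, and Pop replicate 1 stood apart from replicates 2 and 3: CAD measured 119, 189.9 and 190.1 CPM, IMPDH2 419, 345 and 309 CPM, ADSL 153, 118 and 108 CPM and UMPS 64.5, 50.6 and 47.4 CPM in replicates 1 to 3. Lineage 03 was the low lineage: 8 of 10 enzymes were lower than in Pop (25.5% of all genes) and GART was higher (23.2%), with PPAT not passing (-0.21 ± 0.09, adjusted p = 0.0616). The same lineage had 8 of 10 lower than lineage 10 (25% of all genes) and 8 of 10 lower than lineage 13 (27.1%). The median log2 difference of the 10 was -0.38, -0.41 and -0.34 in these 3 comparisons, against values between -0.03 and -0.01 over all genes. Beside the comparisons with Pop, the 7 leukocyte markers summed to 205 to 235 CPM in Pop, 210.3 to 232 CPM in lineage 03, 79.4 to 91.4 CPM in lineage 10 and 81.8 to 108 CPM in lineage 13, with 2 of 3 tested higher in lineage 03, 2 lower in lineage 10 and 3 lower in lineage 13. The 5 endothelial markers summed to 7.61 to 9.16 CPM in Pop and 1.18 to 3.75 CPM in the lineages, with 2 of 2 tested lower in lineages 03 and 13 and 1 in lineage 10. Of 4 tested fibroblast markers 2 were higher and 2 lower in lineage 03, 2 lower in lineage 10 and 4 lower in lineage 13. The part of these lists was not tested.

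Among the purine enzymes, IMPDH2 measured 252, 233 and 221 CPM in lineage 03, all below Pop, a difference of -0.60 ± 0.10 on the log2 scale (adjusted p = 2.84e-04). It was also lower than Pop in lineage 10, at 282, 287 and 272 CPM (-0.35 ± 0.10, adjusted p = 0.0137, 23.5% of all genes lower), a call lost without replicate 3 of lineage 10 (adjusted p = 0.0528). In lineage 13, at 309.5, 274 and 312 CPM, it just missed the threshold (adjusted p = 0.0503) and passed without Pop replicate 3 (0.00748), with RLE scaling (0.0408), the stricter filter (0.0336), the replicate block (0.0443) and DESeq2 (0.0263). GART went the other way. It measured 145, 154 and 151 CPM in Pop, 203, 176 and 172 CPM in lineage 03, 234, 233 and 235 CPM in lineage 10 and 251, 251 and 233 CPM in lineage 13. Every lineage was above every Pop library, by 0.29 ± 0.07, 0.64 ± 0.07 and 0.71 ± 0.07 on the log2 scale (adjusted p = 0.00488, 1.42e-05 and 4.73e-06). The tested genes of chromosome 21 had medians of 0.25, 0.26 and 0.23 in the same comparisons, and their part was not tested.

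The other purine enzymes in lineage 03 were lower than in Pop by -0.47 ± 0.11 for ADSL, -0.36 ± 0.07 for PAICS, -0.32 ± 0.07 for PFAS and -0.29 ± 0.09 for ATIC. PAICS measured 413, 374 and 369 CPM in lineage 03 and 533, 490.3 and 461 CPM in Pop. The tested genes of chromosome 4, which holds PAICS, had a median of -0.23 in this comparison. Chromosomes 17, 22 and 2, with PFAS, ADSL and ATIC, had -0.04, 0.02 and 0.01. The part of the chromosomes was not tested. ATIC was lost with the compared groups alone (adjusted p = 0.0622), and PPAT was called lower without replicate 1 of lineage 03 (0.00335) or of Pop (0.0494). In lineages 10 and 13, none of PPAT, PFAS, PAICS, ADSL and ATIC differed from Pop by a called amount as fitted. With total counts as scaling, PPAT (adjusted p = 0.0327) and PFAS (0.0398) were called higher in lineage 10 than in Pop. PPAT was also called higher there without replicate 1 of lineage 03 (0.0296). Between lineages 10 and 13, PPAT was higher in lineage 10 (75.2, 72.7 and 75.4 against 65.8, 61.5 and 58.3 CPM, log2 difference 0.27 ± 0.09, adjusted p = 0.0322, 16.6% of all genes higher). That call was lost in 5 of 12 fits that left out 1 library, namely each of the 3 libraries of lineage 10 (adjusted p = 0.0875, 0.0622 and 0.0896) and replicates 2 and 3 of lineage 13 (0.0812 and 0.112).

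Of the pyrimidine enzymes, CAD and DHODH differed between lineages 03, 10 and 13, and UMPS passed no test between them. CAD measured 118, 119 and 117 CPM in lineage 03, 307, 298 and 299 CPM in lineage 10 and 249.6, 251 and 196 CPM in lineage 13. Lineage 03 was lower than lineage 10 by 2.55-fold (log2 difference -1.35 ± 0.15, adjusted p = 5.62e-06), the largest difference of the 10 enzymes in any comparison here, and lower than lineage 13 by 1.97-fold (-0.98 ± 0.15, adjusted p = 9.24e-05). Against Pop, CAD was lower in lineage 03 (-0.49 ± 0.15), higher in lineage 10 (0.85 ± 0.15, 18.8% of all genes higher) and higher in lineage 13 (0.48 ± 0.15, 21% higher). The first of these was lost without Pop replicate 2 (adjusted p = 0.0612) or 3 (0.0608), and the third without replicate 1 (0.0600) or 2 (0.0610) of lineage 13 and with the compared groups alone (0.0800). The median of chromosome 2 was 0.01, 0.29 and 0.28 against Pop for lineages 03, 10 and 13, and its part was not tested.

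DHODH had its highest level in lineage 13, at 19.2, 16.5 and 20.6 CPM, and its lowest in lineage 03, at 8.71, 7.86 and 7.50 CPM, with lineage 10 at 12.3, 11.6 and 12.7 CPM and Pop at 14.2, 13.1 and 10.1 CPM. Lineage 13 was above Pop by 0.59 ± 0.12 (adjusted p = 0.00160) and above lineage 10, whose difference from it was -0.62 ± 0.12 (adjusted p = 0.00159, 18% of all genes lower). Lineage 03 was below Pop by -0.64 ± 0.13 and below lineage 13 by -1.23 ± 0.13, which is 2.34-fold. UMPS was lower in lineage 03 than in Pop (-0.39 ± 0.10, adjusted p = 0.00621), at 41.6, 41.8 and 40.6 CPM. It passed no other test of the second table as fitted, but was called lower in lineage 13 than in Pop without Pop replicate 3 (adjusted p = 0.0206).

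Leaving out Pop replicate 1, the library that stood apart, added calls also in comparisons that do not use Pop. All groups of a table share 1 estimate of the spread. Lineage 03 was then lower than lineage 10 also in IMPDH2 (adjusted p = 0.00612 beside 0.0508) and UMPS (0.00687 beside 0.0757), and lower than lineage 13 in UMPS (0.0454). Lineage 10 was then higher than lineage 13 in CAD (0.00105 beside 0.0626) and PAICS (0.0475). Leaving out Pop replicate 3 added some of these calls too: IMPDH2 (0.0231) and UMPS (0.0426) between lineages 03 and 10, and CAD (0.0446) between lineages 10 and 13. IMPDH2 between lineages 03 and 10 was also called with the replicate block (0.0371), total counts (0.00569), the stricter filter (0.0482), the compared groups alone (0.00466) and DESeq2 (0.0404). UMPS between the same lineages was called with total counts (0.00940) and the compared groups alone (0.00620), and between lineages 03 and 13 with total counts (0.0411). CAD between lineages 10 and 13 was called with the compared groups alone (0.00489) and DESeq2 (0.0394). Against Pop itself, ATIC of lineage 10 was called higher without Pop replicate 1 (0.0439), where its log2 difference was 0.17 in place of 0.07. Replicate 1 of lineage 03, which had the highest PPAT of its group (64.9, 52.2 and 51.2 CPM), also mattered: without it PPAT was lower in lineage 03 than in lineage 13 (0.0116), and ADSL lost its call there (0.0654), as it did without replicate 3 of lineage 13 (0.0717).

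**Figure D4:**
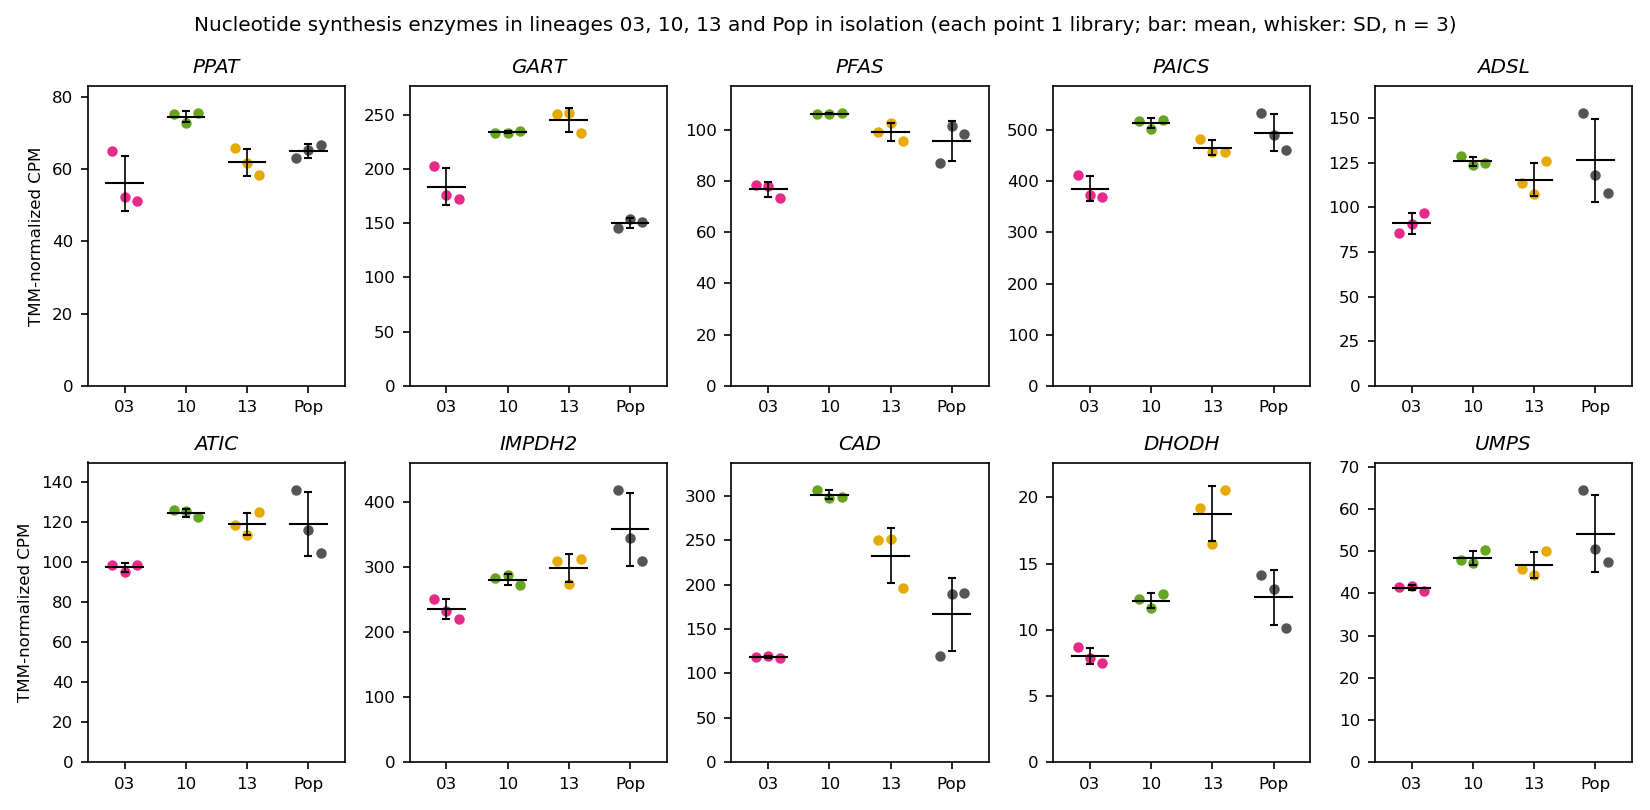
TMM-normalized CPM of the 10 enzymes in the 12 isolation libraries of lineages 03, 10 and 13 and Pop, with the mean (bar) and SD (whisker) of 3 libraries and each vertical axis starting at 0. Lineage 03 is lowest for CAD and DHODH, and 1 Pop library stands at 119 CPM for CAD beside 2 at 190 CPM.

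Genes around the 10 enzymes were described from lists of the wider pathway. PRPS1 and PRPS2, which make PRPP, went in opposite directions in lineage 35 with co-culture: PRPS1 rose by 1.29 ± 0.09 and PRPS2 was -1.21 ± 0.10 (log2, adjusted p = 1.01e-10 and 2.64e-09). In lineage 22 both were lower (-0.25 ± 0.09 and -0.86 ± 0.10), and in lineage 45 PRPS1 was higher (0.39 ± 0.09) while PRPS2 was at 0.04 ± 0.10 and did not pass. The shares of all genes to read the counts of these lists against are those of the co-culture comparisons: 27% higher and 30% lower for lineage 22, 32.7% and 32.9% for lineage 35, and 18.6% and 23.2% for lineage 45. Among 13 other purine synthesis genes, lineage 22 had 5 rises and 4 falls, lineage 35 had 4 and 5, and lineage 45 had 5 and 3, and the shares for lineages 22 and 35 were near those of all genes. PRPSAP2, a regulatory partner of PRPS, rose in each lineage (0.66, 0.86 and 0.52).

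Downstream of UMP, the 9 other pyrimidine genes split into 6 higher and 2 lower for lineage 22, 3 and 4 for lineage 35, and 7 and 0 for lineage 45. CTPS1, which makes CTP, rose in all 3 lineages (0.33, 0.56 and 0.50), while its isozyme CTPS2 fell in lineages 22 and 35 (-0.48 and -0.93) and was at -0.08 in lineage 45. TYMS, the thymidylate synthase, rose in lineage 22 (0.75 ± 0.08) and fell in lineage 35 (-0.72 ± 0.08). Against Pop, CTPS1 was lower in lineage 03 (-0.93 ± 0.12), 10 (-0.64 ± 0.12) and 13 (-0.64 ± 0.12). Of 3 ribonucleotide reductase genes, 2 rose in lineage 22, 2 in lineage 35 and 0 in lineage 45, and 0 fell.

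Folate one-carbon genes, which supply the formyl groups for GART and ATIC, rose in 8 of 13 cases in lineage 22 with 0 falling, in 7 of 13 in lineage 35 with 1 falling, and in 10 of 13 in lineage 45 with 0 falling, where 27%, 32.7% and 18.6% of all genes rose. The medians were 0.48, 0.39 and 0.33 on the log2 scale. SHMT2, the mitochondrial serine hydroxymethyltransferase, rose by 1.12 ± 0.09 in lineage 35, from 195 to 425 CPM on average, and by 0.53 ± 0.09 in lineage 45. SHMT1, its cytosolic counterpart, rose by 0.98 ± 0.08 in lineage 22. The 7 pentose phosphate genes gave lineage 22 3 rises and 1 fall, lineage 35 2 and 4, and lineage 45 3 and 1.

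Salvage, transport and breakdown did not move as 1 block. The 6 purine salvage genes split into 2 higher and 2 lower for lineage 22, 5 and 1 for lineage 35, and 2 and 0 for lineage 45. HPRT1, which recovers hypoxanthine and guanine, rose in lineage 35 (1.43 ± 0.16) and fell in lineage 22 (-0.56 ± 0.15), and APRT, which recovers adenine, rose in all 3 (0.73, 0.47 and 0.61). Of 8 pyrimidine salvage genes, 2 rose and 3 fell, 2 and 2, and 2 and 1 in lineages 22, 35 and 45, with the thymidine kinase TK1 up in each (0.94, 0.59 and 0.42). SLC29A2, an equilibrative nucleoside transporter, rose in each lineage too (1.98 ± 0.15, 0.93 ± 0.14 and 1.44 ± 0.14), and the 3 tested transport genes gave 2 rises and 1 fall, 2 and 1, and 2 and 0. The 12 breakdown genes split into 2 higher and 3 lower for lineage 22, 4 and 5 for lineage 35, and 0 and 7 for lineage 45. XDH, which oxidises hypoxanthine to uric acid, was among those lower in lineages 22 (-2.64 ± 0.34), 35 (-3.24 ± 0.33) and 45 (-1.08 ± 0.33). Its mean levels in isolation were only 2.03, 3.04 and 0.96 CPM.

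**Figure D5:**
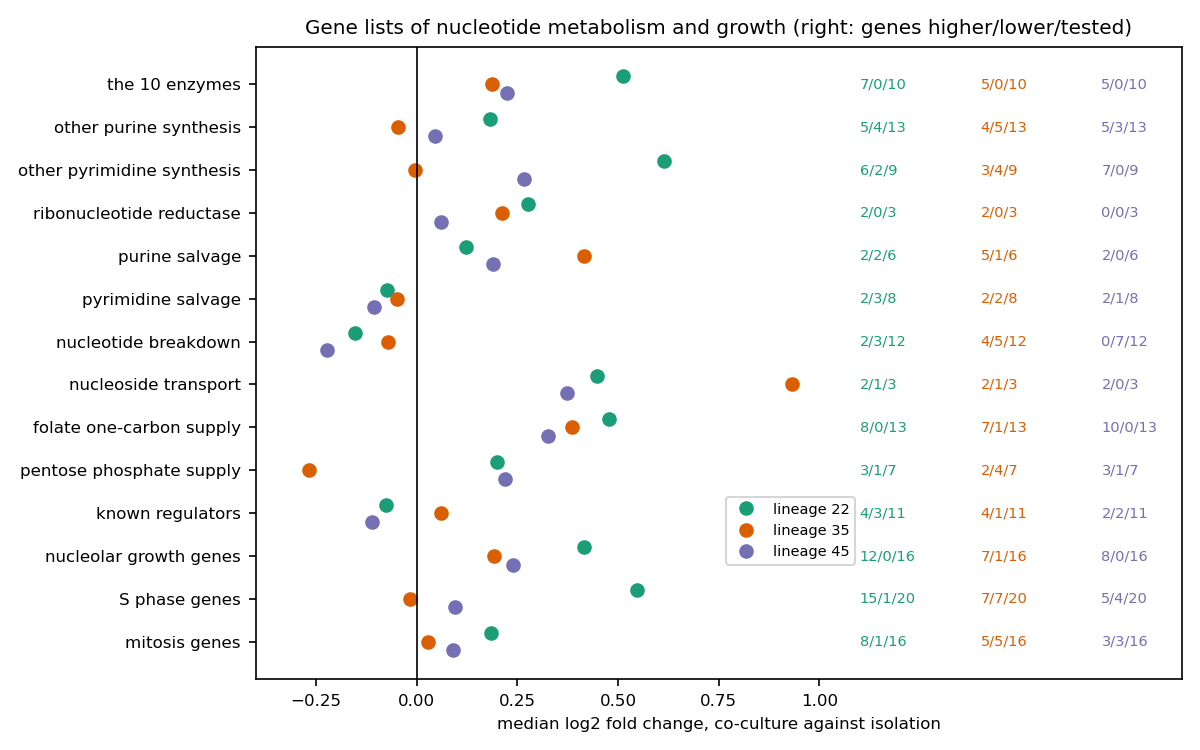
Median log2 fold change from isolation to co-culture of the 10 enzymes and of 13 gene lists around them in lineages 22, 35 and 45, with the numbers of genes higher, lower and tested at the right. The lineage 22 point of the 10 enzymes lies at 0.51 and that of 20 S phase genes at 0.55, while the lineage 35 point of the S phase genes lies near 0.

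Growth and cell cycle lists were read beside the enzymes. Lineage 22 had 12 of 16 nucleolar growth genes higher and 0 lower from co-culture, lineage 35 had 7 and 1, and lineage 45 had 8 and 0. The 20 S phase genes split into 15 higher and 1 lower for lineage 22, 7 and 7 for lineage 35, and 5 and 4 for lineage 45, and the 16 mitosis genes into 8 and 1, 5 and 5, and 3 and 3, beside 27% of all genes higher and 30% lower, 32.7% and 32.9%, and 18.6% and 23.2%. MCM5, a helicase subunit, rose by 0.71 ± 0.08 in lineage 22, and POLA1, a DNA polymerase subunit, fell in lineage 35 (-0.99 ± 0.09). In lineage 03 against Pop, where 8 of the 10 enzymes were lower, 8 of 16 nucleolar genes were lower and 2 higher, and 8 of 20 S phase genes lower and 1 higher (25.5% of all genes lower, 23.2% higher). In lineage 10 the S phase list gave 1 higher and 9 lower (18.8% of all genes higher, 23.5% lower), and in lineage 13 it gave 9 higher and 1 lower (21% higher, 24.2% lower). The part of these lists in the enzyme values was not tested. The 11 known regulators split into 4 higher and 3 lower, 4 and 1, and 2 and 2 in lineages 22, 35 and 45. ATF4, a stress-response activator, rose in each lineage (0.42 ± 0.10, 0.78 ± 0.10 and 0.34 ± 0.10).

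The genes whose pattern over the 6 group means of the first table was most like the average pattern of the 10 enzymes were FAM195A (Pearson r = 0.996), PSMD3 (0.995), NPM1 (0.995), PTGES2 (0.994) and MAPK8IP1 (0.992). Over the 4 groups of the second table they were PWP2, MAP9, PRSS12, ZCCHC4 and MED16, each with r above 0.99. With so few group means, high values of r are found easily among many genes, and the list is a description.

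RefSeq's GRCh38.p14 table of windows from 250 bases before to 50 after a gene's start held 12 windows for 8 of the 10 enzymes, and ADSL and IMPDH2 were not in it. The E-box letters CACGTG, which several basic helix-loop-helix factors are known to bind, were found on either strand in 4 enzymes and in 7.26% of all 35116 windows. The PPAT and PAICS windows share 1 such site, since they overlap. The cyclic AMP response element letters TGACGTCA were found in UMPS and in 649 of the windows. GCATGCGC (part of the NRF1 motif, 3.05% of windows) and TGATGCAA (an ATF4 and C/EBP composite, 0.866%) were found in none of the 12. The matches are shown with 10 bases on each side and the motif in capitals, each on the strand of its gene. Before and after refer to RefSeq's start, which for ATIC, DHODH and UMPS lies inside the gene bounds given above.
ATIC, before the start, chr2:215312003-215312028: gccggcgggcCACGTGataagcccgg
ATIC, after the start, chr2:215312078-215312103: cctacctgcgCACGTGgtgccgccgc
PPAT, minus strand, chr4:56435782-56435807: cggagatttcCACGTGcagcaaatac
DHODH, before the start, chr16:72008575-72008600: cgctactgcgCACGTGcacccaacca
UMPS, before the start, chr3:124730395-124730422: acttcgcgggTGACGTCAtcggggcgcc
A match describes letters in a window and not a bound site.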

How the data were processed

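Whole-transcriptome RNA was measured in 30 libraries of 10 groups, made from 500 ng of RNA with a stranded messenger RNA kit and read as pairs of 75 nt, per the labels' protocols. The authors deposited 2 tables of length-scaled estimated counts (expected counts) per gene, made from GRCh38 with STAR 2.6.1d and Salmon 1.4.0, per the submitters' processing notes; the annotation is not given in the sources used here. The tables were normalized and tested separately. Estimated counts were rounded, filtered with filterByExpr, scaled by TMM and fitted over all groups of a table with edgeR 4.0.16 (limma 3.58.1, R 4.3.3, robust quasi-likelihood), with Benjamini-Hochberg adjustment over all genes and a threshold of 0.05. SE is the log2 fold change divided by the square root of F, and a 95% interval spans 1.96 SE.

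Same-numbered libraries deviated together in every pair (r over 0.1) only for lineages 22 and 45 from co-culture. Alternatives were RLE scaling, total counts only, no filter, a filter of 5 CPM in 3 libraries, a replicate block, leaving out each library, the compared groups alone, and DESeq2 1.42.0. A fit without the 6 lineage 35 libraries and a block on the 22 and 45 co-culture groups alone were chosen after seeing the data. On data simulated for lineage 22 co-culture against isolation (14570 genes), 13 of 50 genes changed 1.25-fold were recovered, 43 of 50 changed 1.5-fold, and 48 of 50 changed 2-fold.

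The 10 enzymes, the 13 gene lists and the 6 marker lists were chosen with earlier results of these data known. Named genes are the 10 enzymes, up to 4 genes of smallest p per list in each comparison of co-culture or with Pop, isozymes, and the 5 genes of most similar pattern per table; not all of those are printed, and some results are not reported here. The motifs and the library pairs plotted together were chosen after their values were seen. Replicate libraries differed by more than sampling noise (chi-square per gene at least 5.1).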

Additional observations from a re-analysis of the deposited data

Results flagged for a closer look

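The size of the co-culture change differed between lineages 22, 35 and 45 by the interaction test for 6 of the 10 enzymes, which is why these are listed here. The adjusted p of edgeR's quasi-likelihood test was 3.96e-06 for GART, 0.00409 for ADSL, 0.00435 for CAD, 0.0197 for PPAT, 0.0352 for ATIC and 0.0418 for IMPDH2. The interaction passed for 55.2% of all genes tested. For GART the log2 fold changes were 0.77 in lineage 22, -0.03 in lineage 35 and 0.43 in lineage 45, and for PPAT they were -0.18, 0.29 and 0.24. For ADSL they were 0.67, 0.16 and 0.44, for CAD 0.60, 0.06 and 0.09, for ATIC 0.58, 0.21 and 0.35, and for IMPDH2 0.53, 0.26 and 0.24. The tested genes of chromosome 21, which holds GART, had medians of 0.09, -0.31 and 0.06 in lineages 22, 35 and 45. Those of chromosome 4, which holds PPAT, had -0.35, 0.17 and 0.00. Chromosome 2, with CAD and ATIC, had -0.03, -0.26 and -0.0006. Chromosome 22, with ADSL, had 0.12, 0.01 and 0.04, and chromosome 3, with IMPDH2, had -0.06, 0.09 and -0.02. The part of the chromosomes was not tested.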

How the results depend on the processing

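No value of the 10 enzymes changed sign as a called result under any alternative run. Across the fits of single enzymes, 3948 planned values kept their side of the threshold, 82 moved inside it and 80 moved outside it. Between lineages 35 and 45 in isolation, 2 enzymes were called in place of 1 with RLE scaling, the compared groups alone and DESeq2. With the compared groups alone, 1 enzyme was called in place of 2 between lineage 22 and lineage 35 and between lineage 22 and lineage 45 from co-culture. The difference in co-culture change between lineages 22 and 45 was called for 4 enzymes by DESeq2 in place of 2, and that between lineages 35 and 45 for 2 in place of 1 with RLE scaling, total counts only and DESeq2. Lineage 10 against Pop gave 5 calls in place of 3 with total counts only. The cause was not tested. Total counts only also moved the share of called genes that were higher, over all genes, from 47.3% to 32% in lineage 22 with co-culture, from 52.4% to 42.1% and from 50.6% to 39.2% for lineages 22 and 35 against 45 from co-culture, and from 53.4% to 36.5% for the change of lineage 22 minus that of 45.

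Leaving out 1 library gave 6 to 8 calls in lineage 22 with co-culture, 3 to 6 in lineage 35 and 3 to 7 in lineage 45. In isolation it gave 6 to 8 for lineage 22 against 35, 4 to 7 for 22 against 45 and 1 to 2 for 35 against 45. From co-culture it gave 1 to 2, 2 to 2 and 0 to 0 for the same pairs. The interaction gave 3 to 6, and the pairwise differences of change 5 to 7, 1 to 3 and 1 to 2. In the second table the ranges were 8 to 10 for lineage 03 against Pop, 2 to 4 for 10, 2 to 5 for 13, 8 to 10 for 03 against 10, 7 to 9 for 03 against 13 and 1 to 4 for 10 against 13.

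The labels do not say that equal replicate numbers share anything, and same-numbered libraries correlated between -0.22 and 0.36 in the first table and -0.39 and 0.18 in the second. Lineages 22 and 45 from co-culture were the only groups in which every same-numbered pair exceeded 0.1 (0.36, 0.25 and 0.17). A block fitted on those 2 groups alone, chosen after seeing the data, and the block over the whole table both gave 2 calls between them, as without it. With the replicate block, 8 enzymes were called in lineage 22 with co-culture in place of 7, 7 for lineage 22 against 35 in isolation in place of 8, and 5 in the interaction in place of 6. It also called PPAT for the change of lineage 22 minus that of 45, and IMPDH2 in lineage 13 against Pop and in 03 against 10. The precision of 3 libraries a group limits changes as small as many of those here.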
